A study of Caenorhabditis elegans with 16 samples.

Results

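Messenger RNA of wild-type *Caenorhabditis elegans* embryos was compared between parents grown at 25 °C and parents grown at 20 °C. The comparison took the 8 libraries of the wild-type strain N2, 4 at each temperature, out of 16 in the series. They were assigned by their sample labels, and all 21882 genes of the count tables were followed. Larvae synchronized at the first stage were plated on HB101 bacteria. The adults they became were bleached to free the embryos, 56 h after plating at 20 °C and 47 h at 25 °C. The paper describes the embryos as mixed-stage, and the mix of stages in each library was not tested. The other 8 libraries came from SX3678 worms with the *fbxa-215(syb4404)* allele, grown and collected in the same way. The hours from plating and the batch of collection changed with the temperature, and the parts of the 3 in any difference cannot be told apart. The labels do not say that the 4 libraries of a group came from separate cultures, and p-values then measure only the spread between these libraries, which may be technical.

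A *C. elegans* embryo starts with RNA that its mother loaded into the oocyte, clears much of it as the zygotic genome is switched on, and then divides, specifies its lineages and builds epidermis, muscle, gut and nervous system before it hatches. Development runs faster at a higher growth temperature within the range the worm tolerates. Heat beyond that range switches on heat shock genes through the transcription factor HSF-1, whose products keep unfolding proteins soluble or refold them.

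Totals were between 10001670 and 14180839 counts per library at 20 °C and between 13818575 and 15659770 at 25 °C. Genes with at least 10 counts numbered 10098 to 10608 at 20 °C and 11918 to 12150 at 25 °C. The lowest correlation of log2 CPM (counts scaled to a common library size) within a group was 0.9935, and the highest between the groups was 0.9666. Replicates 3 and 4 at 25 °C were the least alike pair of their group. Each list below was therefore also counted without both of them, a choice made after the data were seen, and all 7 inducible heat shock genes and 35 of 41 cilium genes were still called. Markers of adult soma and yolk summed to between 1.05 and 2.05 CPM at 20 °C and between 2.19 and 3.34 CPM at 25 °C over 9 genes. Markers of sperm summed to between 4.51 and 5.89 CPM at 20 °C and between 8.37 and 12.26 CPM at 25 °C over 50 genes, of which 31 had any count. *col-19*, an adult collagen gene, had at most 1 count in any library and the yolk gene *vit-2* at most 7, and no gene of the major sperm protein passed the filter. Both sums were higher at 25 °C in every library, and their part in the results was not tested.

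At 25 °C a large set of weakly expressed genes was higher and a small set was lower. The quasi-likelihood test of edgeR was run on 11579 genes, and a gene was called where its Benjamini-Hochberg adjusted p was under 0.05 and it changed more than 2-fold. By this rule 2447 genes (21.1%) were called, 2316 higher (20%) and 131 lower (1.13%). Without the fold minimum 7657 genes (66.1%) passed, 4035 higher (34.8%) and 3622 lower (31.3%), so the directions were more even once small changes were counted. How even depended on the scaling, as upper-quartile scaling gave 4428 higher and 2738 lower. All 4 libraries at 25 °C lay above the 4 at 20 °C for 3745 genes (32.3%) and below them for 3171 (27.4%). In bulk RNA, fewer cells of a type and less RNA per cell cannot be told apart, and this holds for each gene group below. The plot of fold change against level shows the uneven spread.

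**Figure D1:**
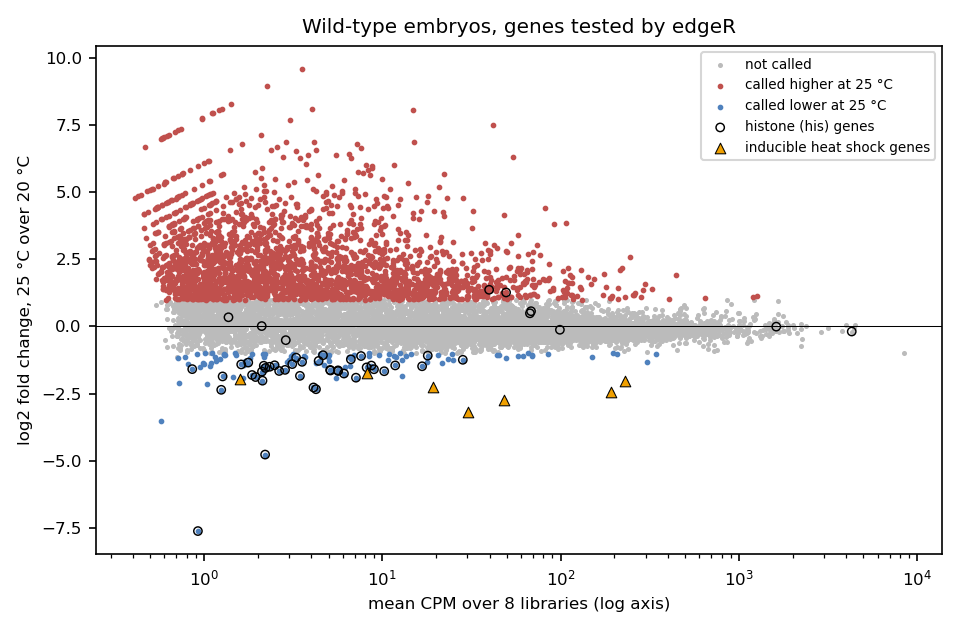
Log2 fold change at 25 °C over 20 °C (vertical axis) against the mean CPM over the 8 wild-type libraries (horizontal log axis), 1 point per gene tested. The 2316 genes called higher (red) lie mostly at low CPM, while inducible heat shock genes (triangles) and most histone genes (rings) lie below 0.

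The called genes differed in level. Genes called higher had a median of 0.928 CPM at 20 °C and 4.82 CPM at 25 °C, and 1198 of the 2316 had a mean under 1 CPM at 20 °C. Their median fold change was 4.08, with 1178 above 4-fold and 279 above 16-fold. Genes called lower had medians of 6.78 CPM at 20 °C and 2.5 CPM at 25 °C, a median fold of 2.46, and 14 members above 4-fold. Of the genes with a mean between 1 and 5 CPM over all 8 libraries 44.3% were called higher, against 1.89% of those over 100 CPM. By chromosome, the share called higher was 30.6% on X and 25.5% on V, and it ranged from 13.3% to 19.1% on the other 4 nuclear chromosomes.

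The largest rises were of genes almost silent at 20 °C. *F41F3.3*, a gene without a common name at V:4647769-4648239 in WBcel235, measured 0.434, 0.310, 0.602 and 0.410 CPM at 20 °C. At 25 °C it measured 66.6, 96.9, 84.7 and 84.3 CPM. The ratio of its counts was 188, with a 95% interval of 124 to 300 that covers counting error only. *col-165*, a collagen gene, went from a mean of 0.101 ± 0.0383 CPM to 29.5 ± 5.26 CPM (SD, n = 4 here and below), a ratio of 293 (95% interval 125 to 903). *cut-3*, which encodes a cuticlin of the cuticle, went from 0.243 ± 0.207 to 29.7 ± 6.17 CPM. *grl-15*, a hedgehog-related gene, and *Y47D7A.13* had 1 count each over the 4 libraries at 20 °C and 485 and 364 counts at 25 °C. *F53F1.4* had no count at 20 °C and 86 to 150 counts per library at 25 °C, at least 28.9-fold higher against the floor of 3 counts per library. The groups overlapped for none of these genes, which was a condition of the rule that named them.

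Of the 5 most abundant genes called higher, 4 encode collagens and lay close to 2-fold, the least change the call allows. *dpy-17*, a cuticle collagen gene, measured 797, 782, 776 and 807 CPM at 20 °C and 1694, 1603, 1781 and 1891 CPM at 25 °C. *sqt-3*, a cuticle collagen gene used already in the embryo, went from 763 ± 91.8 to 1629 ± 118 CPM. The type IV collagen genes of basement membranes behaved alike in size, *emb-9* from 264 ± 15.1 to 545 ± 67.8 CPM and *let-2* from 422 ± 29.7 to 874 ± 149 CPM. The log2 fold changes of these 4 genes were between 1.04 and 1.14. No group overlapped, which the rule that named them required. Without replicate 3 at 20 °C *sqt-3* and *let-2* fell just under 2-fold (both 0.99), and without replicate 3 at 25 °C *emb-9* and *let-2* did (0.97 and 0.95). The last, *hbl-1*, a zinc finger gene of developmental timing, rose by 1.91 ± 0.16 (SE) on the log2 scale.

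Genes of the epidermis and its matrix were mostly higher at 25 °C. The embryonic sheath and precuticle are extracellular coats laid down before the cuticle. Over all genes tested 34.8% passed the adjusted p upward and 20% were called higher. Of 17 tested genes of these coats 15 passed upward (88.2%), 1 downward, and 7 were called higher (41.2%). Their median log2 fold change was 0.64, beside 0.00218 over all genes tested. The lipocalin gene *lpr-5* measured 20.97, 14.96, 13.1 and 14.4 CPM at 20 °C and 135, 130, 148 and 116 CPM at 25 °C. The log2 fold change was 3.05 ± 0.11 (adjusted p = 5.29e-12). Its neighbour *lpr-4* changed more, from 5.11 ± 1.12 to 91.4 ± 10.4 CPM. *noah-1*, which encodes an abundant sheath protein, rose by 0.46 ± 0.07 on the log2 scale without reaching 2-fold. Of 21 junction and attachment genes 17 passed upward (81%) and none downward. Of the 21 genes 5 were called higher (23.8%), near the 20% of all genes. The filament genes *ifa-3* and *ifb-1*, which anchor epidermis to muscle, rose by 1.68 ± 0.08 and 1.64 ± 0.08 on the log2 scale.

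Of 173 cuticle collagen genes 61 passed the filter on low counts, so the list is described by the members that could be tested. The filter also kept genes with enough counts at only 1 temperature. Members almost silent at 20 °C were thus tested through their counts at 25 °C. Counts of calls here, in the later lists and over all genes rest in part on this filter. Of the 61 tested 38 were called higher (62.3%) and 1 lower (1.64%), beside 20% and 1.13% of all genes tested. The largest change was that of *col-165*. *dpy-7*, a collagen gene of the cuticle furrows, measured 78.0, 76.7, 66.2 and 75.7 CPM at 20 °C and 224, 207, 234 and 222 CPM at 25 °C. The 1 collagen gene called lower was *col-63*, at a log2 fold change of -1.93. The median over the 61 was 1.44, and 0.956 where at least 10 counts were asked of every library. Of 11 tested cuticle processing genes 6 passed the adjusted p upward (54.5%, beside 34.8% of all genes) and none downward. Only 1 was called (9.09%), below the 20% of all genes. *phy-2*, which hydroxylates collagen, rose without reaching 2-fold from 126 ± 4.27 to 160 ± 6.8 CPM.

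Hedgehog-related and patched-related genes, which in *C. elegans* serve the apical matrix and membranes of epithelia, gave 34 calls upward (64.2%) and 1 downward (1.89%) among 53 tested. Over all genes 20% were called higher and 1.13% lower. The median of the list was 1.61, and 1.15 where every library had to hold 10 counts. *wrt-1* encodes a warthog protein. It measured 0.940, 0.620, 1.05 and 0.718 CPM at 20 °C and 42.1, 41.2, 50.1 and 41.9 CPM at 25 °C, a log2 fold change of 5.68 ± 0.14. *wrt-2* changed by 5.19 ± 0.16. *wrt-10* was already at 221 ± 14.6 CPM at 20 °C and reached 307 ± 12.5 CPM. The gene called lower was *grd-11*, at -1.58. Of 70 glutamine-rich *abu* and *pqn* genes 39 were tested. They were split, with 20 of the 39 past the adjusted p upward (51.3%) and 9 downward (23.1%). Over all genes these shares were 34.8% and 31.3%. *pqn-13* went from 2.45 ± 0.567 to 42.2 ± 7.96 CPM and *abu-13* from 1.76 ± 0.463 to 22.7 ± 2.52 CPM. *pqn-59*, the most abundant member, fell without reaching 2-fold, from 1153 ± 32.1 to 1030 ± 46.1 CPM. Asking 10 counts of every library lowered the median of this list from 0.39 to 0.13.

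Muscle genes rose nearly throughout. Of 33 tested genes of body wall muscle 32 passed the adjusted p upward (97%, beside 34.8% of all genes) and none downward. Of the 33 genes 23 were called higher (69.7%, beside 20% of all genes). The median log2 fold change of the list was 1.85, and 1.69 where every library had to hold 10 counts. *mlc-3*, a myosin light chain gene, measured 21.2, 20.5, 21.98 and 23.7 CPM at 20 °C and 90.5, 90.7, 98.4 and 88.0 CPM at 25 °C. *clik-1*, a calponin-like gene, rose by 3.12 ± 0.09 on the log2 scale. *act-4*, an actin gene of muscle, rose by 0.46 ± 0.05. The groups did not overlap for any of the 3.

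Of 14 pharynx genes 10 were tested and 9 called higher (90%, beside 20% of all genes), with a median of 4.02. *tni-4*, the troponin I of pharyngeal muscle, measured 0.289, 0.233, 0.151 and 0.410 CPM at 20 °C and 9.999, 12.5, 12.7 and 12.58 CPM at 25 °C. *ceh-22*, a homeobox gene of pharyngeal muscle, rose by 1.53 ± 0.10 on the log2 scale. *pha-4*, the forkhead gene that specifies the pharynx, was counted among specification factors. It rose by 0.31 ± 0.06, from 261 ± 11.7 to 324 ± 27.2 CPM. Where every library had to hold 10 counts, the median of the pharynx list was 1.47.

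Genes of neurons and their cilia were higher as well. Of 44 synapse and transmitter genes 39 were tested. Of the 39 tested 25 were called higher (64.1%, beside 20% of all genes) and none lower. The adjusted p was passed upward by 33 (84.6%, beside 34.8% of all genes) and downward by 2. Their median was 1.45, and 1.08 where every library had to hold 10 counts. *ric-3*, which encodes a chaperone of acetylcholine receptors, measured 6.44, 5.58, 6.10 and 5.74 CPM at 20 °C and 34.9, 32.9, 35.9 and 31.9 CPM at 25 °C. *slo-1*, a potassium channel gene, rose by 2.23 ± 0.10 on the log2 scale. *unc-33*, needed for axon outgrowth, rose by 0.40 ± 0.05. Of 145 neuropeptide and insulin-like genes 40 were tested and 19 called higher (47.5%, beside 20% of all genes). The insulin-like gene *ins-1* had 3 counts over the 4 libraries at 20 °C and 124 at 25 °C, a ratio of 34.2 (95% interval 11.4 to 168). The median of this list was 0.99 and fell to 0.28 where every library had to hold 10 counts.

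Genes of the cilium and of intraflagellar transport, which in *C. elegans* act in sensory neurons, gave 35 calls upward among 41 tested (85.4%) and none downward. Over all genes 20% were called higher. The median of the list was 2.37, and 1.91 where every library had to hold 10 counts. *che-11*, a subunit of the retrograde transport complex, measured 0.868, 0.388, 1.28 and 0.820 CPM at 20 °C. At 25 °C it measured 11.4, 12.8, 13.4 and 11.3 CPM. *mks-6*, of the ciliary transition zone, rose by 2.81 ± 0.14 on the log2 scale. The kinesin gene *klp-11* rose from 88.5 ± 2.19 to 118 ± 10.4 CPM, without reaching 2-fold.

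Of 21 tested intestinal genes 14 were called higher (66.7%, beside 20% of all genes) and none lower. Their median was 1.37, and 0.929 where every library had to hold 10 counts. *ifb-2*, an intermediate filament gene of the gut lumen, measured 10.05, 9.15, 8.81 and 7.999 CPM at 20 °C and 49.1, 45.4, 49.02 and 44.95 CPM at 25 °C. *asp-1*, an aspartic protease gene, went from 0.317 ± 0.185 to 16.8 ± 2.08 CPM. *asp-4*, a protease gene expressed at 351 ± 5.25 CPM at 20 °C, measured 366 ± 13.7 CPM at 25 °C, with overlapping groups and an adjusted p of 0.273. The plot by library holds a choice of named genes that leaves out *asp-4*. The groups stood apart for each gene in it, so it does not show how often groups overlapped.

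**Figure D2:**
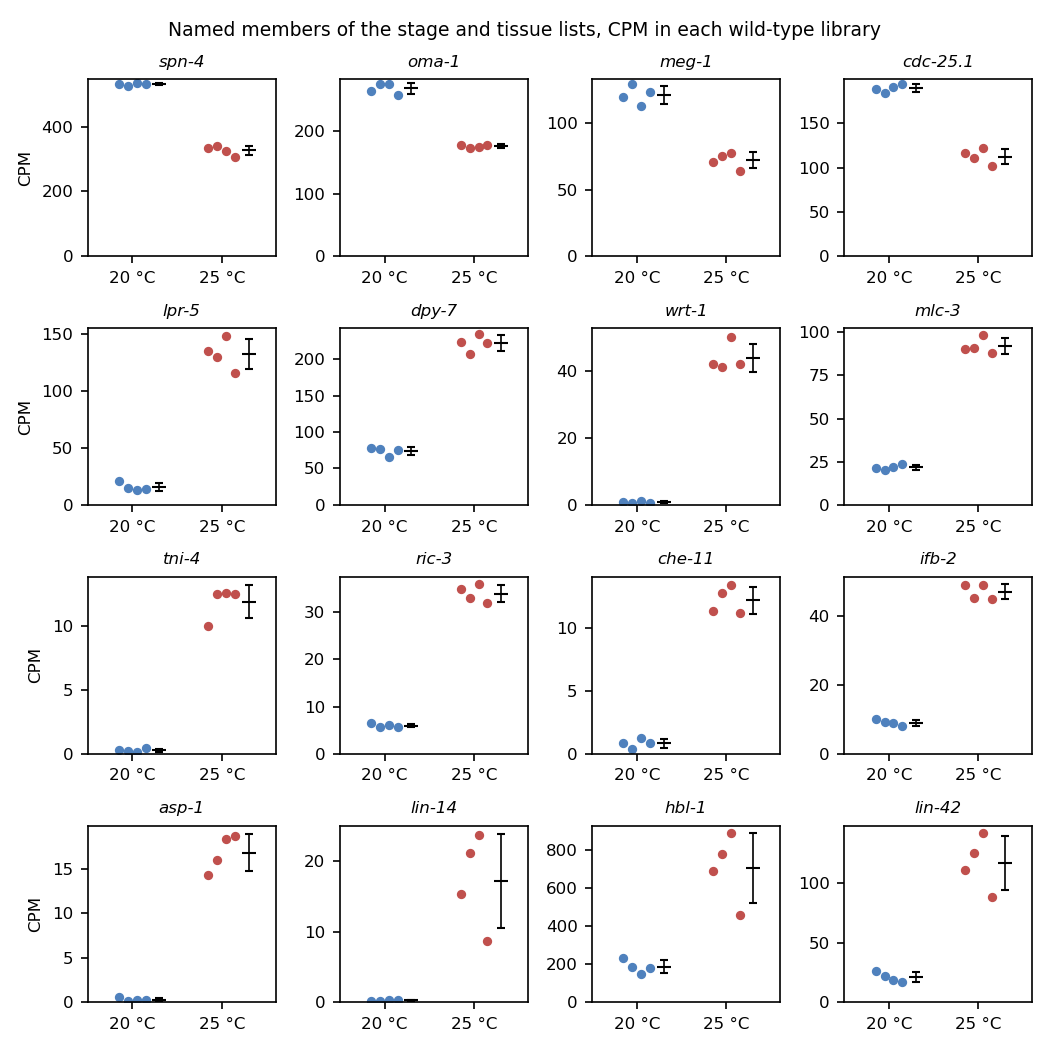
CPM of 16 named genes in each wild-type library (points), with the mean and SD of the 4 libraries at each temperature (bar). Maternal and cell cycle genes in the top row fell by less than 2-fold, while *wrt-1*, *tni-4*, *asp-1* and *lin-14* went from near 0 to between 8.74 and 50.1 CPM.

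Of 8 tested genes of hatching and larval timing 7 passed the adjusted p upward (87.5%) and 4 were called (50%), beside 34.8% and 20% of all genes. *lin-14*, which sets the first larval fates, measured 0.217, 0.233, 0.376 and 0.308 CPM at 20 °C and 15.3, 21.1, 23.7 and 8.74 CPM at 25 °C. *hbl-1* measured 235.3, 187, 149 and 181 CPM at 20 °C and 689, 783, 892 and 461 CPM at 25 °C. *lin-42*, related to the period genes of clocks, rose by 2.45 ± 0.14 on the log2 scale. In each of the 3 genes the lowest library at 25 °C was replicate 4 and the highest replicate 3, and the groups did not overlap.

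Factors that act in the choice of lineages changed about as often as genes at large. Of 20 lineage and tissue specification genes 8 passed the adjusted p upward (40%) and 4 downward (20%), beside 34.8% and 31.3% of all genes. Of these 3 were called (15%), and the median was 0.08. *unc-86*, a POU gene of neuronal lineages, was called, going from 18.6 ± 1.66 to 47.0 ± 4 CPM. Of 7 Hox and caudal-type genes none was called, beside 20% of all genes called higher and 1.13% lower. The adjusted p was passed upward by 4 of the 7 (57.1%) and downward by 2 (28.6%). *mab-5*, a Hox gene of the posterior body, rose without reaching 2-fold from 11.8 ± 1.12 to 22.3 ± 1.35 CPM, and *pal-1*, the caudal gene, fell without reaching it from 155.5 ± 4.13 to 128 ± 2.62 CPM. Of 63 *ceh* homeobox genes 48 were tested, and 8 of the 48 were called higher (16.7%), near the 20% of all genes. *ceh-48*, a homeobox gene of the nervous system, went from 11.3 ± 0.512 to 39.8 ± 4.41 CPM.

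Maternal regulators were lower at 25 °C. Of 17 maternal regulators that bind RNA or set early fates, 16 passed the adjusted p downward (94.1%, beside 31.3% of all genes). None reached the fold minimum, and the median log2 fold change was -0.61. *spn-4* measured 531, 527, 535 and 533 CPM at 20 °C and 335, 341, 324 and 308 CPM at 25 °C. It encodes an RNA-binding protein that controls translation of maternal messages. *oma-1*, a zinc finger gene of oocyte maturation, fell from 268 ± 9.02 to 176 ± 2.45 CPM. The 1 member that passed upward was *mbk-2*, a kinase gene of the change from oocyte to embryo, by 0.21 ± 0.06 on the log2 scale.

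P granule and germ line genes fell likewise, 15 of 17 past the adjusted p downward (88.2%, beside 31.3% of all genes) and none upward. *meg-1*, which encodes a disordered protein of the germ granules, measured 120, 130, 113 and 123 CPM at 20 °C and 70.9, 75.5, 78.0 and 64.2 CPM at 25 °C. *glh-4*, a Vasa-like helicase gene, fell by 0.83 on the log2 scale. Of 19 tested early zygotic genes, switched on in the first rounds of cleavage, 14 passed downward (73.7%) and 1 upward. *pes-10*, among the first genes transcribed in somatic cells, measured 95.2, 100.2, 93.5 and 95.5 CPM at 20 °C and 73.7, 69.96, 62.5 and 64.6 CPM at 25 °C. The 1 that rose was *sdz-38*, from 5.21 to 7.67 CPM. Of 11 tested eggshell genes 3 passed downward (27.3%, beside 31.3% of all genes) and 1 upward. Their median of -0.09 was -0.128 without replicate 2 at 20 °C, and nearer 0 without replicate 3 at 20 °C (-0.0105) or without replicates 2 (-0.0453) or 3 (-0.022) at 25 °C.

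Of 26 genes of DNA replication and the cell cycle 23 passed the adjusted p downward (88.5%, beside 31.3% of all genes) and 1 upward. None reached 2-fold, and the median was -0.28, or -0.212 with upper-quartile scaling. *cdc-25.1*, a phosphatase gene that starts mitosis, measured 189, 184, 191 and 195 CPM at 20 °C and 116, 111, 122 and 102 CPM at 25 °C. *cyb-3*, a cyclin B gene, fell by 0.47 on the log2 scale. The gene that rose was *cki-1*, whose product inhibits cyclin-dependent kinases and holds cells in G1 phase. It measured 105, 101, 118.7 and 108 CPM at 20 °C and 189, 177, 179 and 194 CPM at 25 °C. The strip plot sets these lists beside those of the tissues.

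**Figure D3:**
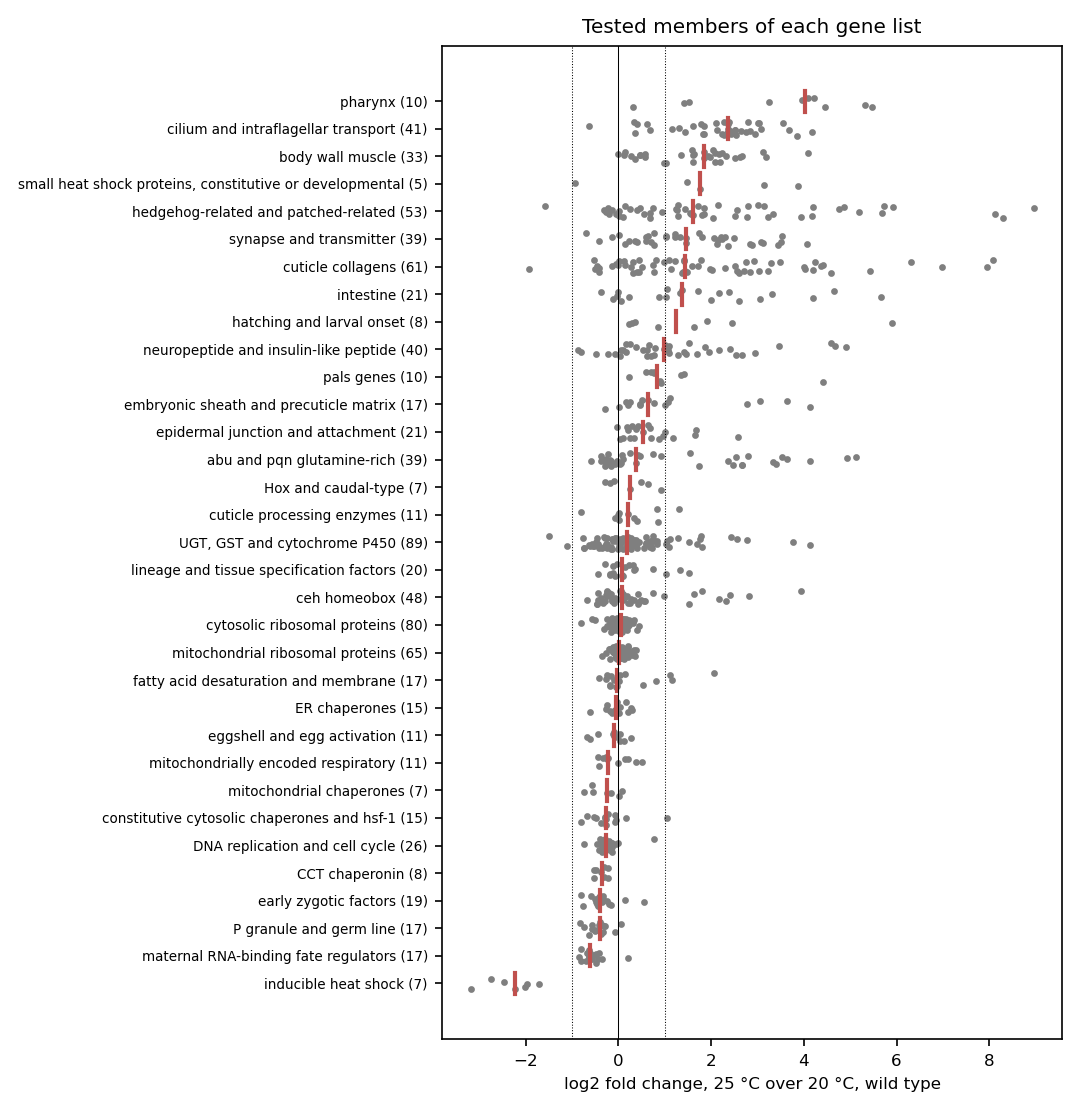
Log2 fold change at 25 °C over 20 °C of each tested member (grey points) of the lists with at least 5 tested members, with the list median (red bar) and the number tested in brackets; dotted lines mark 2-fold. Medians run from -2.24 for inducible heat shock genes to 4.02 for pharynx genes.

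The inducible heat shock genes were lower at 25 °C, the higher temperature. Of 8 matched genes 7 were tested, and all 7 were called lower, beside 1.13% of all genes. Their median log2 fold change was -2.24, and with any 1 library left out it lay between -2.38 and -2.11 with all 7 called. Their summed level was 771 to 997 CPM at 20 °C and 166 to 217 CPM at 25 °C. The remaining copy of *hsp-16.1* had no count in any wild-type library. Reads of near-identical copies cannot be placed with certainty, so this does not show that the copy was silent.

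The small heat shock protein gene *hsp-16.1*, at V:9090077-9090604 in WBcel235, measured 48.7, 49.8, 63.97 and 56.9 CPM at 20 °C. At 25 °C it measured 7.12, 4.62, 5.84 and 6.43 CPM. This fall of 3.19 ± 0.12 on the log2 scale (adjusted p = 6.23e-12) was the largest in the list. *hsp-16.48*, from the same cluster, measured 71.6, 83.4, 100.1 and 80.6 CPM at 20 °C and 17.3, 11.3, 11.3 and 10.1 CPM at 25 °C. *hsp-16.41* fell by 2.24 ± 0.15 and *hsp-16.2* by 1.72 ± 0.16. The groups did not overlap for any of the 7 tested members of the list, though for some of them the naming rule required it.

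The Hsp70 genes of the list fell with them. *F44E5.4* measured 319, 277, 399 and 310 CPM at 20 °C and 79.2, 47.2, 55.7 and 54.7 CPM at 25 °C. *F44E5.5*, its near-identical neighbour on chromosome II, measured 293, 373, 381 and 431 CPM at 20 °C and 100.2, 92.2, 88.7 and 83.9 CPM at 25 °C. Every library at 20 °C lay above every library at 25 °C for both. *hsp-70*, much weaker, fell from 2.53 ± 0.66 to 0.641 ± 0.208 CPM. It overlaps the gene *uggt-2*, whose reads were not told apart by strand. In the mutant its log2 fold change was -0.70 (edgeR, adjusted p = 0.0632). Reads of near-identical copies are divided among them by salmon, so the level of 1 copy is less certain than their sum.

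**Figure D4:**
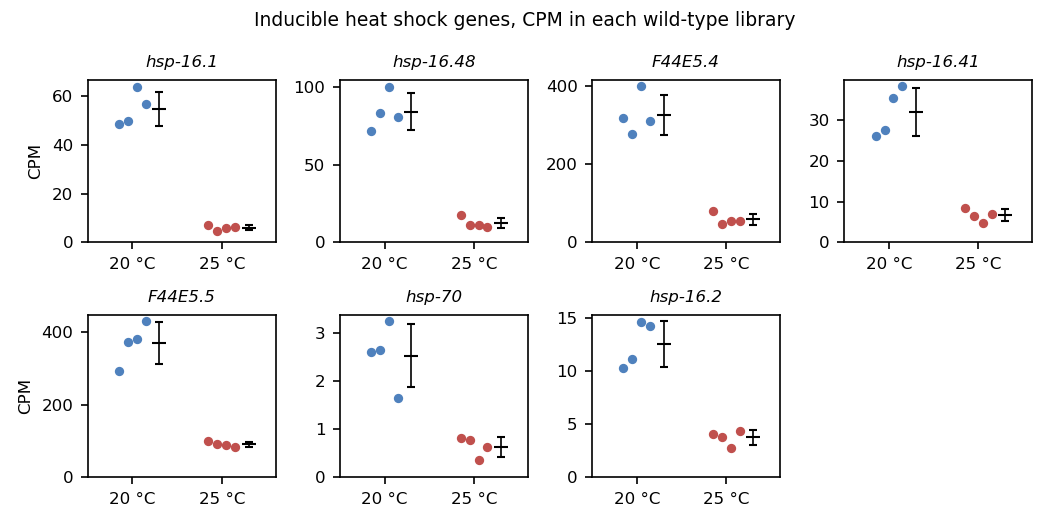
CPM of the 7 tested inducible heat shock genes in each wild-type library (points), with the mean and SD of 4 libraries at each temperature (bar). All 4 libraries at 20 °C lie above all 4 at 25 °C in every panel.

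Other chaperones changed less, or in the opposite direction. *hsf-1*, which encodes the transcription factor of the heat shock response, fell by 0.26 ± 0.06 on the log2 scale (adjusted p = 0.00147), from 109 ± 5.76 to 90.8 ± 7.53 CPM. Counting *hsf-1*, 10 of 15 constitutive cytosolic chaperone genes passed the adjusted p downward (66.7%, beside 31.3% of all genes) and 2 upward. *hsp-110* fell from 160 ± 9.78 to 99.4 ± 5.24 CPM, while *hsp-90* rose by 0.15 (adjusted p = 0.0226). The gene called higher was *unc-23*, a co-chaperone gene of muscle attachment, from 9.71 ± 0.949 to 20.0 ± 1.71 CPM. It lay under 2-fold without replicate 2 at 20 °C (0.95) or replicate 1 at 25 °C (0.99). All 8 subunits of the CCT chaperonin, which folds actin and tubulin, passed downward, with a median of -0.35 and none at 2-fold.

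The small heat shock genes that are expressed in development rather than by heat were mostly higher. Of 5 tested 4 were called (80%, beside 20% of all genes). *hsp-12.2* measured 5.35, 3.18, 4.14 and 4.41 CPM at 20 °C and 34.7, 36.7, 42.2 and 37.7 CPM at 25 °C. *hsp-12.1* rose by 1.76 ± 0.09 on the log2 scale. The exception was *sip-1*, a small heat shock gene of oocytes and embryos, which fell by 0.94 from 404 ± 26.3 to 210 ± 11.5 CPM, just under 2-fold, and at -1.001 without replicate 3 at 20 °C. Of 15 chaperones of the endoplasmic reticulum 4 passed upward (26.7%) and 5 downward (33.3%), beside 34.8% and 31.3% of all genes. Of 7 chaperones of the mitochondrion 5 passed downward (71.4%). *enpl-1*, the Hsp90 of the endoplasmic reticulum, rose by 0.28 ± 0.05, and *hsp-6*, the mitochondrial Hsp70, fell from 286 ± 4.07 to 242 ± 19.8 CPM.

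The called falls held many histone genes, a list chosen after its values were seen. Of 51 tested *his* genes 41 were called lower (80.4%, beside 1.13% of all genes) and 2 higher, so that they made up 41 of the 131 falls. With any 1 library left out, 40 or 41 were called lower. *his-67* measured 6.51, 7.91, 7.53 and 6.46 CPM at 20 °C and 1.19, 1.35, 1.20 and 1.89 CPM at 25 °C. *his-32* fell from 39.9 ± 4.9 to 16.8 ± 0.669 CPM and *his-40* from 6.85 ± 1.09 to 1.39 ± 0.202 CPM. The core histone genes are near-identical copies and most of their RNA lacks a poly-A tail, so poly-A libraries record them at low and uncertain levels.

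A few histone genes moved otherwise. *his-41* measured 29.8, 31.7, 24.4 and 30.6 CPM at 20 °C and 71.9, 71.3, 70.3 and 66.1 CPM at 25 °C. *his-35*, beside it on chromosome V, was called higher as well, from 22.3 ± 2.44 to 57.2 ± 6.65 CPM. The H3.3 variant gene *his-71* passed upward at 56.0 and 78.7 CPM, whereas *his-72*, the second H3.3 gene, gave an adjusted p of 0.914 at 1625 and 1617 CPM. *his-24*, a linker histone gene, fell from 4577 to 4015 CPM without reaching 2-fold.

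The most abundant genes called lower, apart from the heat shock genes, included *iff-1*. This eIF5A gene of the germ line measured 440, 412, 433 and 449 CPM at 20 °C and 183, 163, 153 and 199 CPM at 25 °C. *rbm-3.1*, with an RNA recognition motif, fell from 460 ± 55.9 to 227 ± 28.3 CPM. *gln-6*, a glutamine synthetase gene, fell from 277 ± 11.3 to 137 ± 15 CPM, and *cey-2*, a Y-box gene of the germ line, from 262 ± 13.3 to 131 ± 7.93 CPM. The last 3 lay so close to 2-fold that upper-quartile scaling put them under it, at log2 fold changes of -0.95, -0.95 and -0.94. Leaving out replicate 3 at 25 °C did the same, at -0.93, -0.98 and -0.98, as did replicate 2 at 25 °C for *gln-6* (-0.96) and *cey-2* (-0.99), replicate 3 at 20 °C for *cey-2* (-0.99) and replicate 4 at 20 °C for *rbm-3.1* (-0.96). Named after their values were seen, other called falls with known roles in the germ line were *hrde-1*, a nuclear Argonaute gene (78.7 to 36.7 CPM), *cpb-3*, a CPEB gene (114 to 56.0 CPM), and *daz-1*, a DAZ-type RNA-binding gene (60.7 to 29.2 CPM). *gna-2*, which makes a precursor of eggshell chitin, fell from 59.96 to 28.4 CPM.

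Enzyme and housekeeping lists showed smaller changes in both directions. Of 188 UGT, GST and cytochrome P450 genes 89 were tested. Of the 89 tested 15 were called higher (16.9%) and 2 lower (2.25%), near the 20% and 1.13% of all genes. *cyp-42A1* rose from 14.4 ± 1.58 to 35.1 ± 2.47 CPM, and *gst-7*, at 167 ± 8 CPM at 20 °C, fell without reaching 2-fold to 98.5 ± 13.9 CPM. Among 17 tested genes of fatty acid desaturation and membrane fluidity 6 passed upward and 6 downward (35.3% each). Of the 17 genes 3 were called higher (17.6%), and these shares were near those over all genes. Those were the desaturase genes *fat-2* (3.79 to 8.2 CPM), *fat-5* (1.54 to 3.48 CPM) and *fat-6* (0.606 to 2.62 CPM). *elo-6*, a fatty acid elongase gene, rose by 0.81 ± 0.07 on the log2 scale. Of 10 tested *pals* genes 9 passed upward (90%) and 3 were called (30%), beside 34.8% and 20% of all genes. *pals-22*, a repressor of the response to intracellular pathogens, went from 6.47 ± 1.11 to 12.01 ± 0.977 CPM.

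No ribosomal protein gene was called. Of 80 tested cytosolic ones 15 passed the adjusted p upward (18.8%) and 14 downward (17.5%), with a median of 0.05. Of 65 mitochondrial ones 16 passed upward (24.6%) and 6 downward (9.23%). All 4 shares were below those of all genes, 34.8% and 31.3%. *rpl-12* fell from 986 ± 35.8 to 662 ± 40.9 CPM and *rpl-11.1* from 130 ± 6.7 to 73.95 ± 9.69 CPM, while *rla-0* passed upward with groups that overlapped (943 ± 67.5 and 1091 ± 82.9 CPM). Of 11 tested mitochondrially encoded genes 4 passed in each direction. *fbxa-215*, the F-box gene that the series mutates, measured 224, 229, 242 and 232 CPM in wild type at 20 °C and 172, 160, 153 and 172 CPM at 25 °C, a fall of 0.50 ± 0.05 (adjusted p = 4.61e-07).

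The same contrast was measured in the *fbxa-215* mutant, in libraries that did not enter the wild-type fit but came from the same batches. There 2295 of 11558 genes (19.9%) were called, 2174 higher (18.8%) and 121 lower (1.05%). Of the 2316 genes called higher in wild type 2109 were tested in the mutant, 2107 had the same direction and 1926 were called, which is 83.2% of the wild-type list and 88.6% of the mutant list. Of the 131 called lower 127 were tested, 126 had the same direction and 75 were called, 57.3% of the one list and 62% of the other. The median log2 fold change of the inducible heat shock genes was -2.24 in wild type and -1.83 in the mutant. The 2 strains are set against each other in the scatter plot.

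**Figure D5:**
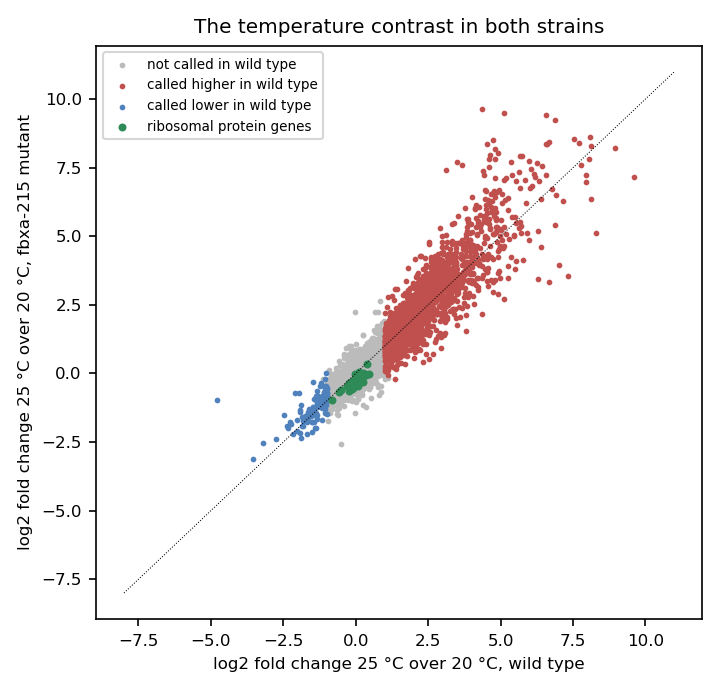
Log2 fold change at 25 °C over 20 °C in wild type (horizontal axis) and in the *fbxa-215* mutant (vertical axis), 1 point per gene tested in both; the dotted line marks equal change. Genes called in wild type lie along the line, and ribosomal protein genes (green) lie near 0 in wild type, with a median of 0.05, and lower in the mutant, with a median of -0.20.

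The difference between the strains in this contrast was tested as an interaction over all 16 libraries. It passed with a difference above 2-fold for 22 of 12117 genes (0.182%), and DESeq2 gave 52. This count was unstable, since 9 of the 16 libraries moved it by over 1.5 times when left out. The lowest count, 4, came when replicate 3 of the mutant at 20 °C was omitted, and the highest, 64, when replicate 3 of wild type at 25 °C was. One of them was *lpr-4*, whose log2 fold change was 4.14 in wild type and 6.12 in the mutant. Of 80 cytosolic ribosomal protein genes 41 passed the adjusted p of the interaction, all toward lower values in the mutant and none by 2-fold. Of all 12117 genes 141 (1.16%) passed it. The median log2 fold change of the 80 ribosomal protein genes was 0.05 in wild type and -0.20 in the mutant.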

How the data were processed

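The authors trimmed non-directional poly-A reads of 150 bases with Trimmomatic v0.39, quantified transcripts with salmon v1.5.1, correcting for sequence and GC bias. They deposited estimated counts of each gene, in 1 table per temperature. The transcriptome release is not given in the sources used here. Of the values of the 8 wild-type libraries 27.1% were not whole, and all were rounded before fitting. The deposited DESeq2 tables (log2 fold changes and adjusted p-values of the authors' own comparisons) were not used. Of 21882 genes 21714 were found in Ensembl release 115 of WBcel235, which gave positions and lengths; overlapping genes were not told apart by strand.

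Each table was joined by gene ID, and the 8 wild-type libraries were fitted in edgeR v4.0.16 (R v4.3.3) by glmQLFit and glmQLFTest after filterByExpr and TMM, without covariates. The mutant libraries alone and the interaction over 16 libraries were fitted by the same steps. The alternatives listed below changed a step, a threshold, the genes or the libraries. CPM were computed on TMM-scaled library sizes. SEs of log2 fold changes came from the F statistics. A count of 0 was taken to allow 3 counts, 0.187 to 0.308 CPM per library. Intervals cover counting error only.

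Genes were named by a rule: the 8 largest called rises and falls with a mean of at least 5 CPM, the 5 most abundant called each way, the 2 smallest p and the most abundant member of each list, *fbxa-215* and *hsf-1*; the first 2 sets needed libraries that did not overlap. Any other gene was picked with its values known. The 35 lists and the comparison were chosen with earlier results of these data known. Replicate numbers did not pair the libraries: the correlation of deviations between same-numbered libraries was at most 0.0292. Alternatives were RLE, upper-quartile and no scaling, other filters and thresholds, glmTreat, limma-voom (limma v3.58.1), DESeq2 v1.42.0, the replicate block, all 16 libraries in 1 fit, protein-coding genes alone, and each library left out. The edgeR script was tested on simulated data.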

Additional observations from a re-analysis of the deposited data

Results flagged for a closer look

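A difference between the strains in the temperature contrast passed the interaction test of edgeR (adjusted p under 0.05) for 9 named genes. The mutant minus wild-type log2 difference was 1.94 for *lpr-4*, 0.919 for *hbl-1*, 0.886 for *clik-1*, 0.848 for *lpr-5*, 0.569 for *mlc-3*, 0.447 for *hsp-110*, 0.361 for *pek-1*, 0.289 for *meg-1* and -0.295 for *rla-0*.

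In 18 of 236 groups of 4 libraries of named genes 1 library lay far from the others by Dixon's test, where chance gives about 1 in 20. At 20 °C these were *emb-9* (287 CPM) and *ugt-57* (67.0 CPM) in replicate 1, *klp-11* (85.3 CPM) and *pals-22* (4.81 CPM) in replicate 2, *asp-4* (344 CPM), *hsp-110* (174 CPM), *mrpl-40* (109.95 CPM) and *pals-24* (0.151 CPM) in replicate 3, and *grl-15* and *Y47D7A.13* (0.103 CPM, 1 count each) in replicate 4. At 25 °C they were *hsp-16.48* (17.3 CPM) and *tni-4* (9.999 CPM) in replicate 1, *cct-1* (275 CPM) in replicate 2, *abu-13* (26.4 CPM), *mrps-30* (63.2 CPM) and *wrt-1* (50.1 CPM) in replicate 3, and *atfs-1* (51.9 CPM) and *lin-39* (38.7 CPM) in replicate 4.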

How the results depend on the processing

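The 2447 calls (2316 higher, 131 lower) fell to 1198 (1119 and 79) where every library had to hold 10 counts, a filter that leaves out genes near 0 at 20 °C, and to 1192 (1178 and 14) at a fold above 4. glmTreat called 55 lower genes and a fold above 1.5 gave 546 lower. Without any low-count filter 3635 were called. With 1 library left out the count was 2467 to 2618 (2321 to 2462 higher, 137 to 158 lower), and without the fold minimum 7302 to 7802. With the replicate block 2443 genes were called (2312 and 131). Upper-quartile scaling gave 2515 (2408 and 107), DESeq2 2444 and limma-voom 2446. Without the fold minimum upper-quartile scaling gave 4428 higher and 2738 lower, and no scaling 4367 and 2773, against 4035 and 3622. The interaction count of 22 was 52 in DESeq2 and 4 to 64 with 1 library left out. Directions reversed for values near 0. The median of ER chaperones became 0.0209 (upper-quartile), 0.0153 (no scaling) and 0.0216 (10 counts), and that of fatty acid genes 0.0279, 0.0217 and 0.0175, and with 1 library left out -0.07 to 0.0174 (the last without replicate 4 at 25 °C). *mdt-15* became 0.00426 (upper-quartile), 0.00615 (10 counts) and -0.128 to 0.0217 with 1 library left out (the last without replicate 4 at 25 °C). With 1 library left out, mitochondrial ribosomal proteins ran from -0.00872 to 0.0664 (-0.00589 and -0.00872 without replicates 2 and 4 at 20 °C), *cbd-1* from -0.00691 (without replicate 2 at 25 °C) to 0.0832 and *crt-1* from -0.00864 (without replicate 4 at 25 °C) to 0.0699. The cause was not tested. Of the values of named genes 2077 kept direction and side of the threshold, 22 lost the call, 1 gained it and 5 reversed. Genes with few counts at 20 °C have ratios with wide counting intervals, and near-identical copies share reads.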

Other observations

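Other gene families, grouped by name after the values were seen, differed in their share of called rises, which was 20% over all genes. Of 12 tested *dyf* genes, named for sensory neurons that fail to fill with dye, 10 were called higher and none lower, with a median log2 fold change of 1.86. Of 20 *twk* genes, which encode two-pore potassium channels, 14 were called higher, and of 22 *lgc* genes of ligand-gated ion channels 15. The *spp* genes of saposin-like proteins had 7 of 10 called and a median of 3.04. The *ttr* transthyretin-like genes had 13 of 20 called, the *cutl* cuticlin-like genes 13 of 20 and the *clec* lectin genes 17 of 32. The *nhr* nuclear receptor genes, with 40 of 170 called higher (23.5%), and the *fbxa* F-box genes, with 11 of 54 (20.4%), lay near the overall share. Below it were the *ugt* genes with 2 of 40, the *fbxc* genes with 1 of 36 and the *fbxb* F-box genes with 1 of 100. Of the 100 *fbxb* genes 78 passed the adjusted p downward, beside 31.3% of all genes. Of the same genes 5 were called lower (5%, beside 1.13% of all genes), and the median was -0.42.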
